A study of Caenorhabditis elegans with 12 samples.

Results

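The effect of skn-1 RNAi was followed in WT adults with an intact germline, by comparing 3 WT + skn-1 RNAi libraries with 3 WT + vector libraries across all 12595 measured genes and in both directions. These 6 libraries are part of a series of 12. The other 6 carry the same feeding labels and come from glp-1(ts), labelled glp-1(bn18ts), a strain that forms few germ cells at 25°C. In those 6 skn-1 differed by −0.02 between the libraries labelled skn-1 RNAi and vector, so their labels are not borne out by the targeted gene. Known targets of its protein, SKN-1, were mostly lower there by label, with values given in the last comparison. The glp-1(ts) libraries enter only that comparison and the shared estimate of spread. WT is the N2 strain of Caenorhabditis elegans. Control animals ate HT115 bacteria with the empty pL4440 vector, and treated animals ate bacteria that made double-stranded skn-1 RNA. Both groups were grown at 25°C and collected whole on day 1 of adulthood with their germline and eggs, in 3 biological replicates each. Feeding began at the egg according to the sample labels and at the first larval stage according to the study's methods. RNAi by feeding lowers a transcript and does not remove it, so neither group is a skn-1 null. Poly(A) RNA was read as 50 bp single reads, and the values are log2 CPM, the log2 of a gene's read count scaled to the library total, after the authors' quantile normalization. A log2 difference is always skn-1 RNAi minus vector.

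SKN-1 is the nematode counterpart of the mammalian Nrf transcription factors. In the intestine it drives genes that conjugate and export xenobiotics, make glutathione and build the proteasome, and it is held in check by WDR-23, which directs its degradation. The mother also loads skn-1 into the egg, where it directs early blastomeres to form pharynx and gut, so animals with too little of it lay eggs that do not hatch.

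skn-1 itself (WBGene00004804; WBcel235 chromosome IV, 5651039 to 5660384, minus strand) was lower in every treated library. It measured 6.38, 6.50 and 6.1 log2 CPM in the vector libraries and 4.56, 5.03 and 4.37 in the skn-1 RNAi libraries. The groups lay more than 1 log2 unit apart and did not overlap. The difference was −1.67 (SE 0.21), a 3.19-fold reduction, with a limma adjusted p of 0.00782. Its 3' end overlaps csn-5, a COP9 signalosome subunit gene on the other strand, which measured 4.85, 4.76 and 4.78 on vector and 4.75, 4.42 and 4.58 under skn-1 RNAi, a difference of −0.21 (limma adjusted p = 1). skn-1 therefore fell in the WT libraries while the overlapping gene did not pass the test. The csn-5 groups did not overlap, by a narrow gap, and its 3 pairs were all lower (−0.10, −0.34 and −0.20), so a small fall is not excluded. Without vector replicate 1 the limma adjusted p for skn-1 was 0.0579, and without any one of the other 5 libraries it was at most 0.0252.

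Across all genes the response was small. With limma and a Benjamini-Hochberg adjusted p under 0.05, 22 of 12595 genes (0.175%) were called, 10 higher (0.0794%) and 12 lower (0.0953%). All 22 had groups that did not overlap and moved one way in all 3 pairs of libraries with the same replicate number. Same-numbered WT libraries deviated together, so the numbers were read as pairs, and a fit with 1 term per pair (the replicate block) called 93 genes (0.738%), 33 higher (0.262%) and 60 lower (0.476%), all 22 among them. The median difference over all genes was 0.01, and the SD of the differences was 0.45. Groups did not overlap for 5.36% of genes in the higher direction and 5.42% in the lower. In the plot of effect against level, the mean of all 6 libraries had a median of 2.93 log2 CPM over the 12 called lower genes and 0.37 over the 10 called higher genes.

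**Figure D1:**
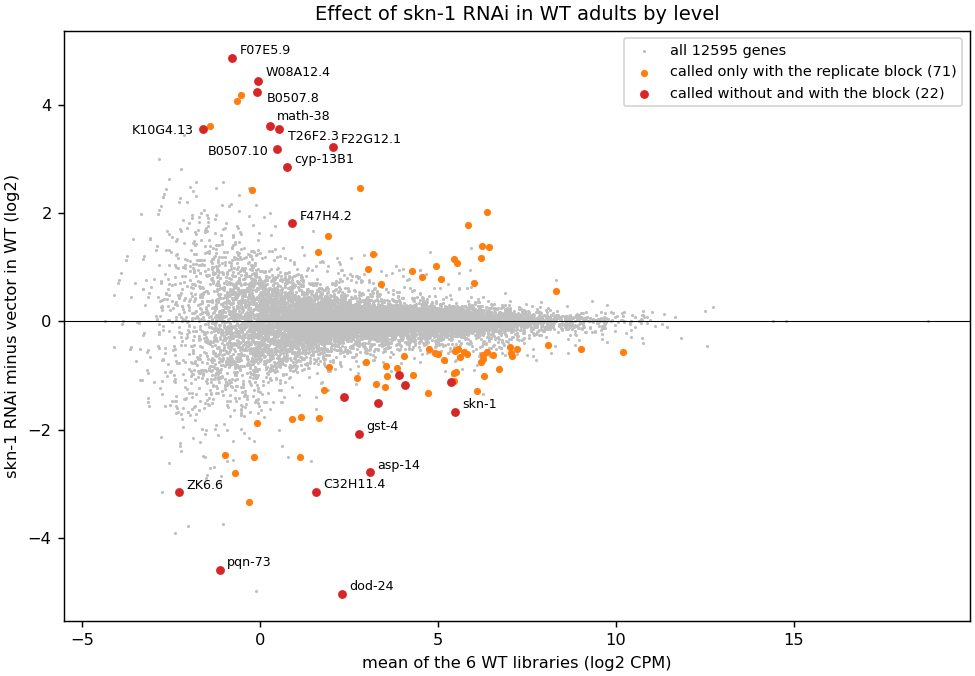
Each point is a gene, with its mean in the 6 WT libraries (log2 CPM) on the x axis and the skn-1 RNAi minus vector difference (log2) on the y axis. Red marks the 22 genes called without and with the replicate block, and orange the 71 called only with it; red points with a difference beyond 1.6 are named. Of the 10 called higher genes 4 had a mean under 0 log2 CPM, and of the 12 called lower genes 2 (pqn-73 and ZK6.6).

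The number of calls changed with single libraries, and the differences of the leading genes changed less. Leaving out vector replicate 1 left 0 calls (566 genes had an unadjusted limma p under 0.05), vector replicate 3 left 5, and skn-1 RNAi replicate 3 left 10, whereas the fits without vector replicate 2, skn-1 RNAi replicate 1 or skn-1 RNAi replicate 2 called 23, 31 and 15. Over these 6 fits dod-24 differed by −5.42 to −4.71, skn-1 by −1.86 to −1.53 and pha-4 by −1.52 to −1.25. Among the 6 WT libraries skn-1 RNAi replicate 3 lay apart on the first principal component, at 58.4 against −30.5 to 5.65 for the others. That component held 32.5% of the variance. The ribosomal RNA gene rrn-3.1 made up 45.8% of the summed CPM of each WT library after quantile normalization. That step ties the values of the most abundant genes across libraries, so the share in each library before it is unknown.

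By the size the study used for lower genes, a fold change under 0.67 with an unadjusted p under 0.05, 286 genes (2.27%) were lower. The mirror of that cutoff, a fold change over 1.5, gave 203 higher genes (1.61%). Low genes were frequent in both sets. By the mean of all 6 libraries, 48.8% of the higher and 36.4% of the lower genes were under 0 log2 CPM (1 CPM), against 13.7% of all genes. In the group where each set is low, which the cutoffs select, the shares were 58.1% on vector and 47.2% under skn-1 RNAi. With genes under a mean of 1 CPM left out, 205 lower and 124 higher genes passed these cutoffs, and without skn-1 RNAi replicate 3 the higher count was 129.

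The 12 called lower genes included glutathione S-transferases, a protease, an embryonic organ selector and infection response genes. The largest fall was that of dod-24 (WBGene00007875), which encodes a CUB-like secreted protein and is known from infection and insulin signalling studies. Its levels were 4.98, 5.36 and 4.09 log2 CPM on vector and −0.33, 0.54 and −0.88 under skn-1 RNAi. Each treated library lay more than 3 units under each control. The difference was −5.04 (SE 0.61), 32.8-fold, with a limma adjusted p of 0.00782. C32H11.4, 16810 bp away on chromosome IV, fell by 3.15 (SE 0.53, limma adjusted p = 0.032), from 3.37, 3.54 and 2.53 to −1.31, 1.35 and −0.05.

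asp-14, an aspartyl protease gene, had the smallest p of all genes. It read 4.71, 4.50 and 4.21 log2 CPM on vector and 0.90, 2.08 and 2.06 under skn-1 RNAi, a fall of 2.79 (SE 0.31, limma adjusted p = 0.00544). This call held under all 10 alternative settings and in 5 of the 6 fits that left out a library, with 0.0579 as the highest limma adjusted p. pqn-73, named for a glutamine- and asparagine-rich stretch, went from 0.96, 1.41 and 1.15 to −4.35, −3.03 and −2.89. Those last 3 values are the lowest in each library's scale or the step above it, so its difference of −4.60 (limma adjusted p = 0.0127) depends on how the lowest values were set. ZK6.6 was low throughout, at −0.38, −0.96 and −0.75 on vector, and 2 of its 3 skn-1 RNAi libraries sat at the lowest value in the table, −4.35 (limma adjusted p = 0.0352).

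pha-4 encodes the FoxA factor that selects pharyngeal identity in the embryo and also acts in adults. It measured 2.98, 2.84 and 3.34 log2 CPM on vector and 1.4, 1.66 and 1.91 under skn-1 RNAi. The groups were separated by nearly a unit, and the fall was 1.39 (SE 0.20, limma adjusted p = 0.0127). F56F10.1 fell by 1.18 (SE 0.17, limma adjusted p = 0.0127), and cbl-1, related to cystathionine beta-lyase of sulfur amino acid metabolism, fell by 0.99 (SE 0.15, limma adjusted p = 0.0159). The last of the 12 was Y32F6A.5, at −1.12 (SE 0.20, limma adjusted p = 0.041), which lies outside the naming rule and is given after its values were seen. In the plot of the called genes by library, the smallest gaps between groups among the lower 12 are under 1 unit and the widest exceed 3.

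**Figure D2:**
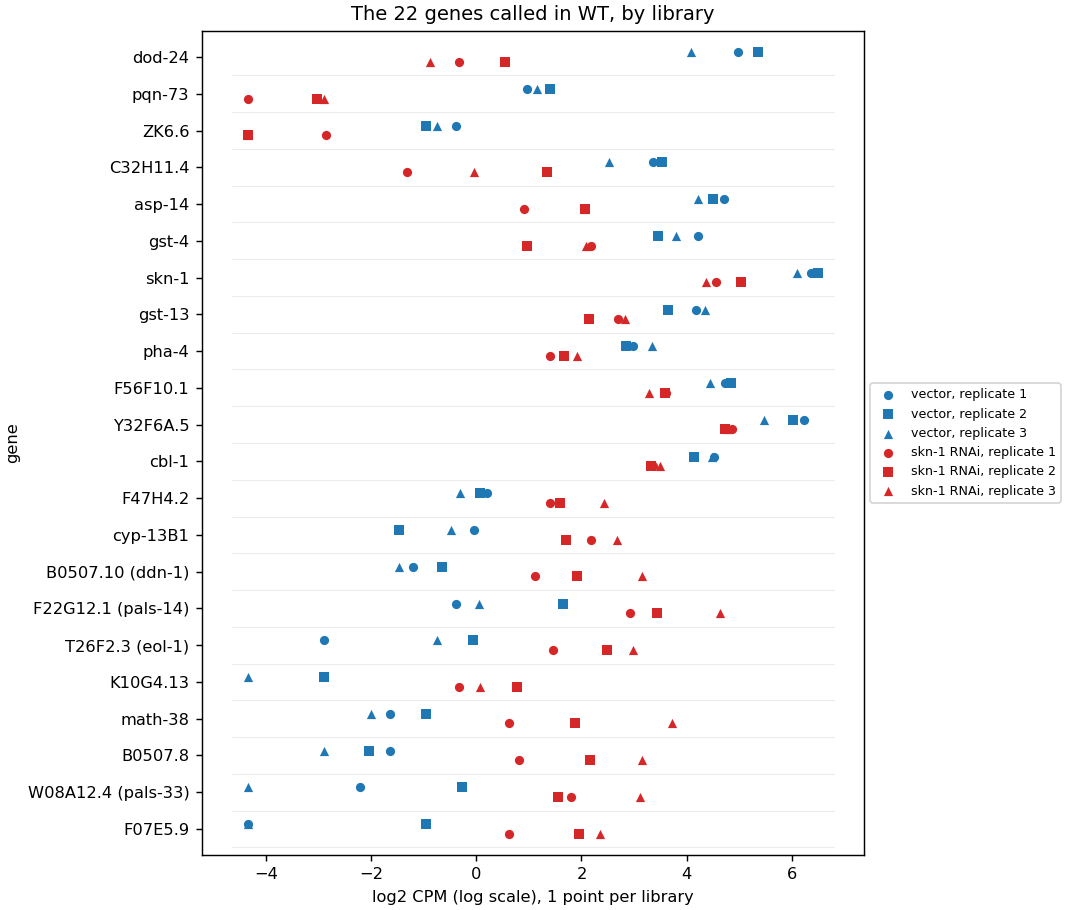
Levels of the 22 called genes (log2 CPM, x axis) in each WT library, 1 row per gene, ordered from the largest fall (dod-24, −5.04) at the top to the largest rise (F07E5.9, 4.86) at the bottom. Blue is vector, red is skn-1 RNAi, and the marker shape gives the replicate number; in every row the 3 red points lie on one side of the 3 blue points.

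Known SKN-1 target genes had lower means throughout, and the difference was widest for gst-4. Of 15 listed targets 12 were measured, and all 12 had a lower mean under skn-1 RNAi, as had 48.5% of all genes. Of these 2 were called lower and 3 with the replicate block (0.0953% and 0.476% of all genes). There were 7 lower at an unadjusted p under 0.05 and 7 lower without overlap (3.9% and 5.42% of all genes). Their median was −0.64, against 0.01 over all genes. Without skn-1 RNAi replicate 3 the median was −0.88. The target list was written with earlier results of these data known, so these counts are not an independent check.

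gst-4, a glutathione S-transferase whose reporter is the usual readout of SKN-1 activity, measured 4.22, 3.45 and 3.81 log2 CPM on vector and 2.19, 0.97 and 2.09 under skn-1 RNAi. All treated libraries were lower by at least a unit. The fall was 2.08 (SE 0.29, 4.22-fold, limma adjusted p = 0.0127), and gst-4 shares bases with dhs-12 on the same strand, so reads of the 2 could mix. gst-13 went from 4.18, 3.64 and 4.35 to 2.70, 2.15 and 2.82, a fall of 1.5 (SE 0.25, limma adjusted p = 0.032).

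nit-1, a nitrilase gene, passed only with the block. Its values were 1.45, 2.09 and 1.83 on vector and −0.33, 0.06 and 0.23 under skn-1 RNAi, −1.80 on average (SE 0.34, limma adjusted p = 0.0582 without and 0.0452 with the block). sdz-8, first found as an embryonic transcript that needs SKN-1, measured 0.53, 1.01 and 0.53 on vector and −0.61, −1.24 and −0.62 under skn-1 RNAi without overlap, with a limma adjusted p of 0.0906. gcs-1, the enzyme that starts glutathione synthesis, was at 5.45, 5.41 and 5.26 on vector and 5.14, 5.17 and 4.44 under skn-1 RNAi. These groups did not overlap either, and the difference was −0.45 (SE 0.17, limma adjusted p = 0.632).

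The remaining targets did not pass. gst-12 (−1.74) and gst-38 (−0.77) had groups that did not overlap and limma adjusted p-values of 0.807 and 0.571. gst-12 differed by −0.93 without skn-1 RNAi replicate 2. gst-10 (−0.51), ugt-11 (−0.40), gst-7 (−0.17), F20D6.11 (−0.13) and sod-1, the cytosolic superoxide dismutase (−0.12), overlapped between the groups.

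Among 37 glutathione S-transferases, which attach glutathione to electrophiles, 2 were called lower (gst-4 and gst-13), none higher, and the median was −0.25. Over all genes 0.0953% were called lower. gst-16, chosen after its values were seen, passed with the block (−2.51, limma adjusted p = 0.0456). Of 56 UDP-glucuronosyltransferases, which attach sugars to xenobiotics, none was called, 46 had a lower mean, and 10 were lower and 3 higher at an unadjusted p under 0.05 (3.9% of all genes were lower and 2.06% higher at that p). ugt-57 had the widest gap, from 0.21, 0.72 and 1.54 log2 CPM on vector to −2.86, −3.03 and −2.89 under skn-1 RNAi, without passing (−3.75, limma adjusted p = 0.131). Its treated values are the step above the lowest in each library, so its size depends on how the lowest values were set. Over the alternative settings the difference ran from −3.82 to −1.315. With the block ugt-46 (−0.87, limma adjusted p = 0.041) and ugt-13 (−1.26, 0.0208, chosen after its values were seen) passed. The cytochromes P450, the oxidases that precede conjugation, had a median of 0.03 over 57 genes. One of them was called, and it rose: cyp-13B1 measured −0.05, −1.46 and −0.47 on vector and 2.19, 1.7 and 2.68 under skn-1 RNAi, a difference of 2.85 (SE 0.46, limma adjusted p = 0.0271).

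Of 23 genes of the SKN-1 pathway and its regulators, skn-1 was the only one called, and the median was −0.03. The glutathione and thioredoxin system (24 genes, median −0.07) and the superoxide dismutases, catalases and metallothioneins (9 genes, median 0.18) had no called member in either fit. The median of the last list turned to −0.30 without skn-1 RNAi replicate 3.

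Nearly every proteasome gene had a lower level under skn-1 RNAi, by a small amount. The proteasome degrades ubiquitin-tagged proteins, with a barrel of alpha (pas) and beta (pbs) subunits and a cap of ATPases (rpt) and other regulators (rpn). All 14 core genes had a lower mean, 13 had an unadjusted limma p under 0.05 and 13 had groups that did not overlap, against 3.9% and 5.42% of all genes in that direction. Of 19 cap genes 18 had a lower mean, 11 an unadjusted p under 0.05 and 13 no overlap. Medians were −0.46 for the core and −0.43 for the cap. None was called without the block. With it 2 core genes (pas-1, pas-7) and 4 cap genes (rpt-2, rpt-6, rpn-3, rpn-7) passed as lower, as did 0.476% of all genes.

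Summed over the 33 subunits, CPM was 3922, 3779 and 3788 in the vector libraries and 3005, 2871 and 2874 under skn-1 RNAi. The 3 treated sums lay close to each other and far under the controls. By pair, the median over the subunits was −0.43, −0.42 and −0.40, and 31 of 33 were lower in all 3 pairs, as were 14.1% of all genes. Leaving out skn-1 RNAi replicate 3 gave a median of −0.43.

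pas-1 had the largest difference of the 33. It measured 6.77, 6.39 and 6.54 log2 CPM on vector and 5.89, 5.96 and 5.61 under skn-1 RNAi, −0.74 (SE 0.14), and passed only with the block (limma adjusted p = 0.0619 without, limma adjusted p = 0.0242 with it). rpt-6, an ATPase of the cap, went from 6.70, 6.53 and 6.50 to 5.90, 6.02 and 5.96 (−0.62, limma adjusted p = 0.0955 without and 0.021 with the block). rpn-6.1, a cap subunit gene known for extending lifespan when raised, differed by −0.27 without overlap (limma adjusted p = 0.887). The plot of the subunits shows pas-5 and the cap genes rpn-1, rpn-2, rpn-8, rpn-9, rpn-11 and rpn-6.2 near 0, and rpn-6.2 alone above it.

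**Figure D3:**
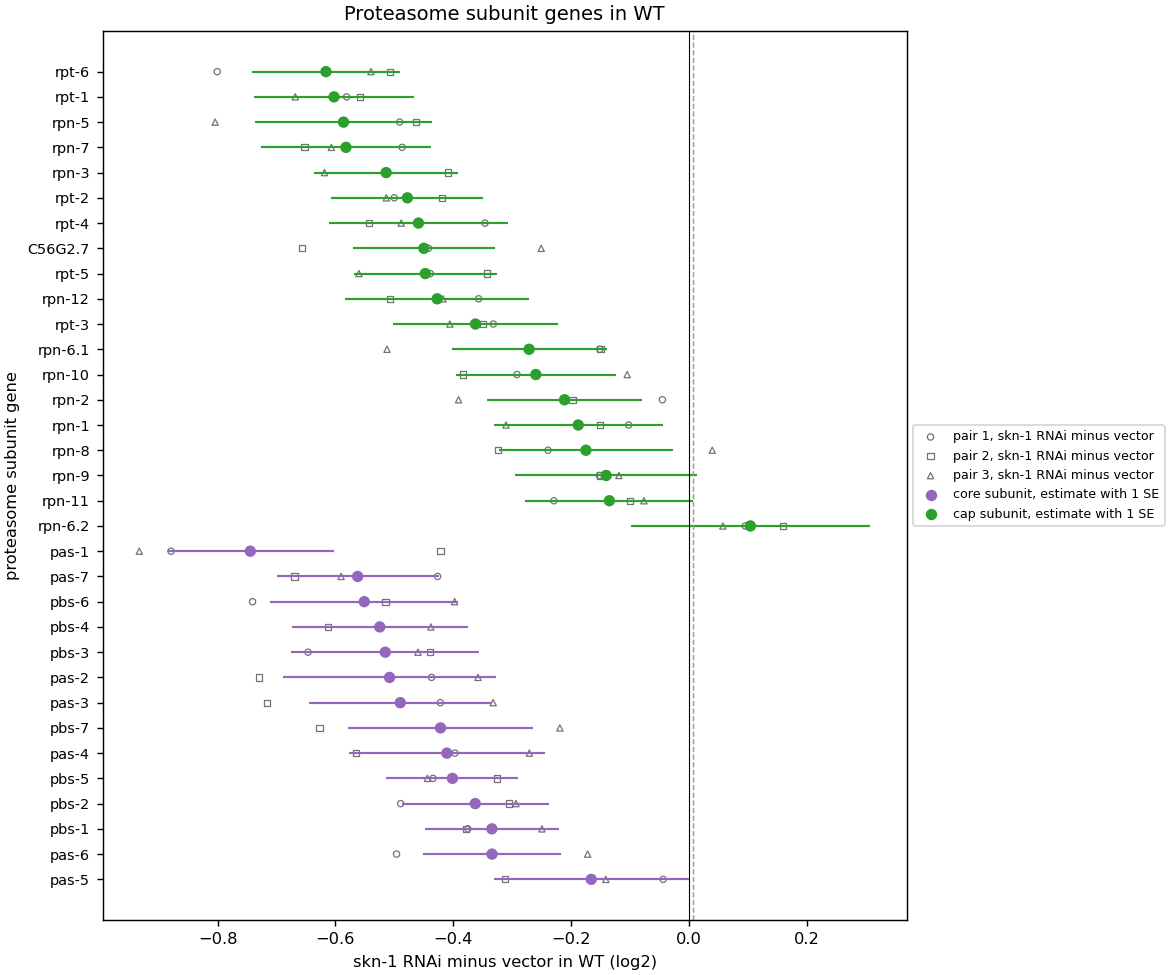
The skn-1 RNAi minus vector difference (log2, x axis) of each proteasome subunit gene in WT, with 1 SE from limma; purple is the core (14 genes), green the cap (19 genes), open markers are the 3 pairs, and the dashed line is the median of all genes. Of 33 estimates 32 lie under 0, with medians of −0.46 for the core and −0.43 for the cap.

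Of 26 heat shock and endoplasmic reticulum chaperone genes 20 had a lower mean, none was called in either fit, and the median was −0.10. One was lower at an unadjusted p under 0.05. Over all genes 48.5% had a lower mean and 3.9% were lower at that p. The proteasome and chaperone lists were not tested against each other. By pair the chaperone median was lowest in replicate 3, at −0.28, and without skn-1 RNAi replicate 3 it was −0.0046. hsp-3, an endoplasmic reticulum BiP, had the smallest p (−0.34, limma adjusted p = 0.56). The cytosolic ribosomal protein genes had a median of 0.07 over 80 genes and the respiratory chain and ATP synthase genes 0.03 over 45.

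Infection response and CUB-like genes were lower in part. Of 34 such genes 24 had a lower mean, 2 were called lower (dod-24 and C32H11.4) and 7 with the block. Over all genes these shares were 48.5%, 0.0953% and 0.476%. The median of the 34 was −0.37, or −0.22 without skn-1 RNAi replicate 3. One, dod-23, was higher at an unadjusted p under 0.05. With the block dod-17 (−1.79, limma adjusted p = 0.0332), F55G11.4 (−1.21, 0.0401), dod-19 (−1.0, 0.0336) and C17H12.8 (−1.33, 0.0011) passed, all chosen after their values were seen. Leaving out 1 library took F55G11.4 to −0.70 (vector replicate 2) and dod-19 to −0.57 and C17H12.8 to −0.80 (skn-1 RNAi replicate 3). F55G11.4 and dod-17 are neighbours 700 bp apart on chromosome IV.

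In several of these genes replicate 3 was low in both groups, which the pairs follow. C17H12.8 measured 5.95, 5.94 and 4.25 log2 CPM on vector and 4.65, 4.50 and 3.00 under skn-1 RNAi. The groups overlap, but each treated library lies more than a unit under the control with its number. clec-41, a C-type lectin gene, also fell by more than a unit in each pair, with 7.01, 7.30 and 5.92 on vector against 5.78, 5.79 and 4.78 under skn-1 RNAi, −1.29 (limma adjusted p = 0.389 without and 0.0011 with the block). lys-7, a lysozyme gene of the gut, differed by −0.94 (limma adjusted p = 0.0368 with the block). The 91 C-type lectins as a whole had a median of 0.01, and 6 were higher and 9 lower at an unadjusted p under 0.05, against 2.06% and 3.9% of all genes.

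Of 22 one-carbon and proline genes 17 had a lower mean, 5 were lower (3.9% of all genes were) and none higher at an unadjusted p under 0.05, and the median was −0.19. cbl-1 was called, at 4.53, 4.14 and 4.49 on vector and 3.36, 3.32 and 3.50 under skn-1 RNAi. Outside the naming rule, cth-2, a cystathionine gamma-lyase, passed with the block (−0.62, limma adjusted p = 0.0348), and differed by −0.30 without skn-1 RNAi replicate 2. cysl-2, a cysteine synthase-like gene outside the list, also passed with the block (−1.01, limma adjusted p = 0.0525 without and 0.0377 with it). sams-1, which makes S-adenosylmethionine, measured 6.25, 6.6 and 6.55 on vector and 5.95, 5.81 and 4.94 under skn-1 RNAi without overlap (−0.90, limma adjusted p = 0.485).

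Other lower genes that passed only with the block, again chosen after their values were seen, were aagr-1, an acid alpha-glucosidase relative (−1.11, limma adjusted p = 0.0525 without and 0.00562 with the block), pcp-2, a prolyl carboxypeptidase-like gene (−1.06, 0.0259 with the block), K04H4.2, now named chtb-1 (−2.52, 0.0193), and the adjoining F01D5.2 (−3.33, 0.0114) and F01D5.3 (−1.77, 0.0159). F01D5.2 and F01D5.3 share bases on one strand, so their reads are not independent.

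Lipid genes showed both directions. lipl-3, a lysosomal lipase, was at 0.41, 0.80 and −0.47 log2 CPM on vector and −2.86, −2.21 and −1.61 under skn-1 RNAi, −2.47 (SE 0.55, limma adjusted p = 0.151 without and 0.049 with the block). It overlaps another gene on its strand. lbp-8, a lysosomal lipid carrier, went from −0.64, −0.26 and 0.06 to −4.35, −1.24 and −1.21 without overlap (limma adjusted p = 0.688). Without skn-1 RNAi replicate 1 its difference moved from −1.98 to −0.94. Over the 19 lipases and fatty acid binding proteins the median was 0.09.

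Of 52 fatty acid oxidation genes 8 were higher and 2 lower at an unadjusted p under 0.05, against 2.06% and 3.9% of all genes, and the median was 0.06. One, F58F9.7, an acyl-CoA oxidase now named acox-3, passed, and only with the block (0.92, limma adjusted p = 0.0453). daf-22, a peroxisomal thiolase that also shortens ascaroside pheromones, measured 4.95, 5.19 and 5.25 on vector and 5.59, 5.65 and 6.82 under skn-1 RNAi (0.89, limma adjusted p = 0.338). dhs-28 (0.63) and acox-1 (0.56) had groups that did not overlap, with limma adjusted p-values of 0.525 and 0.443. Without skn-1 RNAi replicate 3 the differences were 0.49 for daf-22, 0.30 for dhs-28 and 0.34 for acox-1. elo-6, a fatty acid elongase, differed by −0.62 and fat-6, a stearoyl desaturase, by −0.34, with overlapping groups. sbp-1, the SREBP factor of lipid synthesis (0.00), and dhs-3, a lipid droplet dehydrogenase (−0.34, or −0.06 without skn-1 RNAi replicate 2), did not pass.

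None of the 7 yolk protein and receptor genes had an unadjusted p under 0.05, and rme-2, the oocyte yolk receptor, differed by 0.02. For vit-2 and vit-6 the test could not show a change, since normalization gave every library the same value (14.40 and 14.78 log2 CPM). Whether the most abundant yolk transcripts changed is therefore not known from these values. vit-5, a yolk protein gene, measured 12.27, 12.46 and 12.46 on vector and 12.27, 12.46 and 13.05 under skn-1 RNAi, since quantile normalization ties the values of the most abundant genes across libraries.

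The 10 called higher genes include pals genes, whose transcripts are known to climb when microsporidia or Orsay virus infect the gut and when proteasomes are blocked. Among them F22G12.1 is now named pals-14 and W08A12.4 pals-33. T26F2.3 is eol-1, a relative of the decapping exonuclease DXO, and B0507.10 is ddn-1. F22G12.1 (pals-14) measured −0.38, 1.65 and 0.06 log2 CPM on vector and 2.93, 3.43 and 4.64 under skn-1 RNAi. Every treated library was above every control by more than a unit, a rise of 3.23 (SE 0.47, limma adjusted p = 0.0141). The number of higher calls, 10 here, depended on the fit. The 6 WT libraries alone without the block gave 0, as did vooma weights, and the replicate block gave 33. Leaving out 1 library gave 0 to 14. It was 0 without vector replicate 1 or vector replicate 3, and 1 without skn-1 RNAi replicate 3.

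T26F2.3 (eol-1) rose from −2.89, −0.07 and −0.75 to 1.46, 2.48 and 2.99, by 3.54 (SE 0.61, limma adjusted p = 0.0352). math-38, which encodes a MATH domain protein, rose from −1.65, −0.96 and −2.0 to 0.63, 1.87 and 3.72, by 3.61 (SE 0.56, limma adjusted p = 0.0199). B0507.10 (ddn-1) and B0507.8 lie 106 bp apart on one strand of chromosome V and rose by 3.18 (SE 0.52, limma adjusted p = 0.0271) and 4.24 (SE 0.61, limma adjusted p = 0.0127). In math-38, as in both of these, replicate 3 was the highest of the treated libraries and replicate 1 the lowest.

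The largest rise, 4.86 for F07E5.9 (SE 0.85, limma adjusted p = 0.041), was measured against controls of −4.35, −0.96 and −4.35, 2 of them at the lowest value in the table. Its skn-1 RNAi libraries were at 0.63, 1.96 and 2.35. W08A12.4 (pals-33) had 1 control library at that lowest value (4.43, SE 0.80, limma adjusted p = 0.0478), and so had K10G4.13 (3.55, SE 0.53, limma adjusted p = 0.0152). F47H4.2 rose by 1.81 (SE 0.33, limma adjusted p = 0.0473), from 0.21, 0.08 and −0.30 to 1.4, 1.59 and 2.42.

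Low values fall on tied steps in each library, with 8 to 10 steps below 1 CPM, so that a gene at 1 CPM rests on about that many reads if each step is 1 read. Counted from a lowest step of 0, F07E5.9 sat on steps 0, 4 and 0 on vector and 13, 45 and 56 under skn-1 RNAi. W08A12.4 (pals-33) sat on steps 2, 7 and 0 against 33, 33 and 103. The size of such a rise therefore depends on the lowest values, while the order of the libraries does not.

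The name pals groups 23 measured genes, a list made after values were seen, so its counts are not an independent check. Of the 23 genes 18 had a higher mean, as had 6480 of all 12595. Of the 23, 2 were called higher and 5 with the block, against 0.0794% and 0.262% of all genes. There were 11 higher at an unadjusted p under 0.05 and 10 higher without overlap, against 2.06% and 5.36% of all genes. None was lower at that p. Their summed CPM was 27.5, 38.1 and 30.01 on vector and 55.3, 55.8 and 112.9 under skn-1 RNAi. All 3 treated sums exceeded all 3 controls, and replicate 3 had the highest. The median over the 23 was 1.82 with all libraries and 1.14 without skn-1 RNAi replicate 3, and for 2 of the genes (pals-5 and pals-30) every control sat at the lowest value.

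The rise was uneven across the family. C17H1.7 (pals-6), which adjoins pals-14, measured 1.49, 2.64 and 0.62 on vector and 3.37, 3.70 and 5.05 under skn-1 RNAi, 2.46 (limma adjusted p = 0.0525 without and 0.0472 with the block). dct-3 (pals-39) and C31B8.4 (pals-32) also passed with the block, at 2.42 (limma adjusted p = 0.049) and 3.61 (0.0366). C17H1.6 (pals-5), whose promoter is the usual reporter of the response to intracellular infection, was at the lowest value in all 3 vector libraries and at −2.86, −1.24 and 0.08 under skn-1 RNAi, so no fold is given. C29F9.1 (pals-22) and T17A3.2 (pals-25), which hold that response down and allow it, respectively, differed by 0.63 and 0.22 with overlapping groups. The plot of the family shows which rows separate and which do not.

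**Figure D4:**
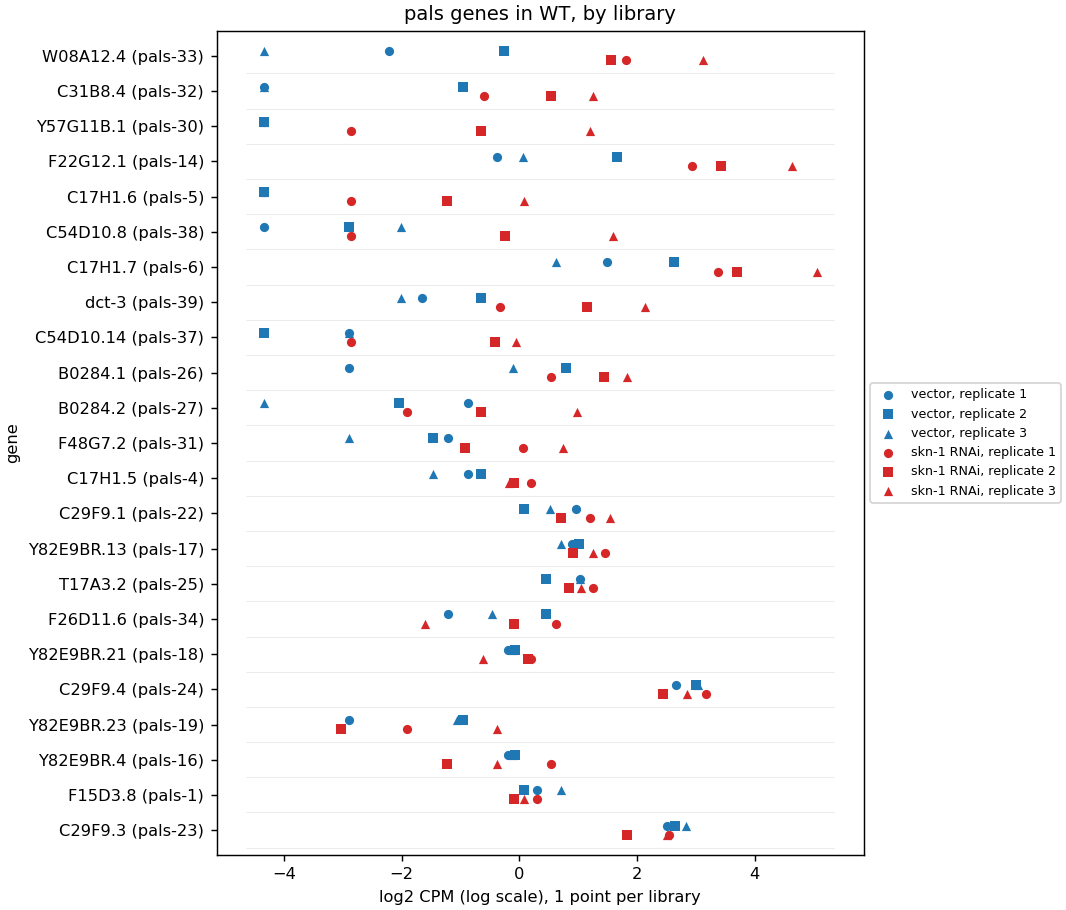
Levels of the 23 measured pals genes (log2 CPM, x axis) in each WT library, 1 row per gene, ordered by the skn-1 RNAi minus vector difference from 4.43 at the top to −0.37 at the bottom. Blue is vector and red is skn-1 RNAi, with the replicate number as marker shape; red points lie apart to the right in 10 rows, and replicate 3 is the rightmost red point in most of these.

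Y2H9A.6 (4.06, limma adjusted p = 0.027 with the block) and F42C5.3 (4.17, 0.0271) rose with the block. So did some cathepsin B-like cysteine proteases, grouped after values were seen. Of 7 cpr genes 6 had a higher mean and 3 passed with the block. Over all genes 6480 of 12595 had a higher mean, and 0.262% were higher with the block. The counts of the cpr genes are not an independent check either. cpr-4 measured 4.27, 5.63 and 6.21 on vector and 7.21, 6.77 and 8.15 under skn-1 RNAi, 2.01 (SE 0.42, limma adjusted p = 0.098 without and 0.00882 with the block). cpr-1 (1.78, limma adjusted p = 0.0059 with the block) and cpr-5 (1.15, 0.0198) overlapped between the groups and were higher in all 3 pairs. Their differences were 1.08 and 0.44 without skn-1 RNAi replicate 3. The 12 aspartyl protease (asp) genes, by contrast, had a median of −0.01.

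Of 100 cuticle collagens 46 had a lower mean, as had 48.5% of all genes. At an unadjusted p under 0.05, 4 were higher and 3 lower (2.06% and 3.9% of all genes). The median was 0.02, or −0.11 without skn-1 RNAi replicate 3. None was called, and 1 (col-124, lower) passed with the block. The shape-setting collagens (dpy, sqt, rol and bli genes, with their processing enzyme dpy-18) had a median of 0.41 over 21 genes, and 5 were higher and 2 lower at an unadjusted p under 0.05 (2.06% and 3.9% of all genes). sqt-3 measured 5.3, 5.49 and 6.46 on vector and 6.66, 6.73 and 7.94 under skn-1 RNAi, 1.36 (SE 0.39, limma adjusted p = 0.359 without and 0.0102 with the block). Replicate 3 was the highest in both groups. dpy-17, which works with sqt-3, differed by 1.39 (limma adjusted p = 0.0382 with the block), or by 0.89 without skn-1 RNAi replicate 3.

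Some matrix genes that embryos and moulting larvae use before a cuticle is laid were higher with the block. noah-1 (1.17, limma adjusted p = 0.00181 with the block), noah-2 (1.08, 0.00451) and fbn-1 (0.77, 0.0336) passed with the block and not without it, and noah-2 differed by 0.69 without skn-1 RNAi replicate 3. They belong to 2 lists, embryo genes (34 genes, median 0.11, 4 higher with the block) and moulting and L4 stage (23 genes, median 0.30, 3 higher with the block). Their other members went both ways. In the embryo list 13 genes had a lower mean, and 7 were higher and 3 lower without overlap. In the moulting list 8 had a lower mean, and 3 were higher and 3 lower without overlap. Over all genes 48.5% had a lower mean, and 5.36% were higher and 5.42% lower without overlap. With the block 0.262% of all genes were higher. Without skn-1 RNAi replicate 3 the median of the moulting list was 0.16. The summed CPM of the embryo genes was 377, 363 and 504 on vector and 513, 501 and 718 under skn-1 RNAi, and that of the moulting genes 321, 294 and 448 against 471, 429 and 761. In each pair the treated library was higher, and replicate 3 was the highest of its group. Both sums contain noah-1, noah-2 and fbn-1, which were higher in all 3 pairs. The sums are therefore not independent of these genes or of each other, and do not show a rise across either list.

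These libraries hold whole animals with their eggs, so more cells of a kind, later or arrested embryos, and more RNA per cell cannot be told apart. The part of eggs in the collagen and matrix values was not tested. Among 16 measured genes that specify endoderm and mesoderm in the embryo only pha-4 was called, and the median was −0.10. ceh-51, a factor of the mesodermal lineage, had the largest difference there, −2.86 (limma adjusted p = 0.605). The 17 sdz genes had a median of 0.10 and no call.

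No gene of the germline (28 genes, summed CPM 6205 to 8155 on vector and 5037 to 8621 under skn-1 RNAi), eggshell and oocyte (12), sperm (26), muscle (16) or neuron (17) lists had an unadjusted p under 0.05. Their medians lay between −0.09 and 0.04. Of 15 intestine markers cpr-1 and cpr-5 were higher and lys-7 lower with the block, with a list median of −0.19, and the 12 hypodermis markers had a median of 0.10. him-4, the hemicentin of basement membranes, measured 5.99, 5.18 and 5.62 on vector and 4.66, 5.13 and 4.72 under skn-1 RNAi (−0.76, limma adjusted p = 0.27).

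**Figure D5:**
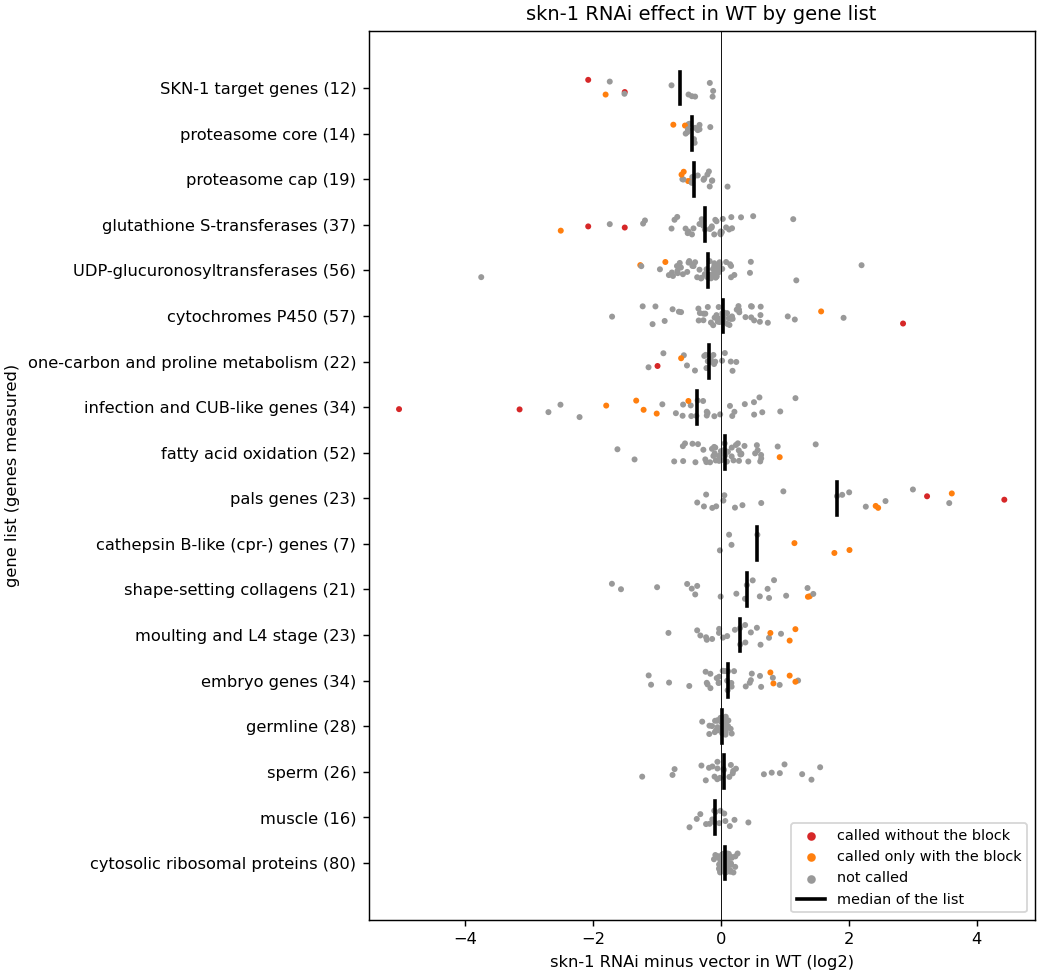
The skn-1 RNAi minus vector difference in WT (log2, x axis) of each measured member of 18 gene lists, 1 row per list with its number of genes; the black bar is the median of the list, red marks genes called without the block and orange those called only with it, and vertical scatter within a row has no meaning. Medians run from −0.64 (SKN-1 target genes) to 1.82 (pals genes), and those of the germline, sperm, muscle and ribosomal protein lists lie between −0.09 and 0.07.

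Whether any of this was particular to WT was asked with the difference between the 2 strains' effects, which use separate libraries. No gene passed (limma adjusted p of at least 0.732), and 745 genes (5.92%) had an unadjusted p under 0.05. With the replicate block no gene passed either, and 1344 genes had an unadjusted limma p under 0.05. skn-1 itself differed by −0.02 in glp-1(ts) between the libraries labelled skn-1 RNAi and vector, against −1.67 in WT. For the difference between strains its unadjusted limma p was 8.04e-05 and its limma adjusted p over all genes was 0.732. csn-5 differed by −1.28 in glp-1(ts) (limma adjusted p = 0.0038). By label, 10 of the 12 measured SKN-1 targets had a lower mean in glp-1(ts), as had 6159 of all 12595 genes. Among these targets nit-1 differed by −3.19 there (limma adjusted p = 0.0034). What the labels stand for was not tested, so directions in glp-1(ts) are given by label.

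Across all genes the effects in the 2 strains correlated at a Pearson r of 0.26, and the share of genes with the same sign was not counted. Of the 22 WT calls 21 had the same sign in glp-1(ts), and 7 were called there too, which is 31.8% of the WT calls and 15.6% of the 45 glp-1(ts) calls (0.357% of genes, with 0.0556% higher and 0.302% lower). They were asp-14 (−2.61 in glp-1(ts)), dod-24 (−4.27), C32H11.4 (−4.30), gst-4 (−1.65), gst-13 (−1.35), F07E5.9 (4.47) and B0507.10 (3.22). Side by side, the medians in WT and glp-1(ts) were −0.64 and −0.70 for the SKN-1 targets, −0.43 and −0.63 for the proteasome and 1.82 and 0.96 for the pals genes. The shape-setting collagens had 0.41 in WT and −0.21 in glp-1(ts). pqn-73 and pha-4, called in WT, differed by −0.30 and −0.45 in glp-1(ts), with limma adjusted p-values of the difference between strains of 0.732 and 0.832.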

How the data were processed

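Whole day 1 WT adults on vector or skn-1 RNAi gave 3 libraries each. Groups and replicate numbers came from the sample labels. The authors aligned reads to WBcel235 with STAR, counted them with featureCounts (Subread), kept genes that reached 1 CPM in at least 2 samples and applied voom with quantile normalization; versions and the strand setting are not given in the sources used here, so overlapping genes could share reads. What the authors deposited are log2 CPM values, used here without change. The per-sample files match the series table (largest difference 0). The authors' deposited columns of averages, fold changes and p-values were not used. Quantile normalization gives each WT library nearly the same CPM sum, 980316 to 980342, so depth is unknown; tied steps among low values (82 to 114 genes at the lowest value per library) show only how coarse these are, and reads could not be recovered for all genes, so no count test was run.

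The 4 groups of all 12 libraries entered 1 limma model (limma 3.58.1, R 4.3.3) with a trend in the empirical Bayes step and no block (8 residual degrees of freedom, 13.6 in total by median). Calls used Benjamini-Hochberg adjusted p under 0.05 over 12595 genes. With 3 libraries against 3 an exact two-sided permutation test cannot go below 0.1, so p-values rest on the model. Residuals of same-numbered WT libraries correlated at 0.11, 0.31 and 0.25, against at most 0.05 for different numbers, so the numbers were read as pairs, and the fit with a replicate block was an alternative. The fit was also run on data simulated with independent errors, which do not carry the pairing of the libraries, so no support is drawn from it.

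The named genes are skn-1, all measured SKN-1 targets, the 10 largest changes per direction among called genes without overlap and with all 3 pairs one way, the called members of each list or up to 3 with the smallest p, and genes the study names (gst-4, nit-1, lipl-3, lbp-8, sbp-1, dhs-3, rme-2, rpn-6.1, vit genes); not every list's members are printed. Members and lists were chosen with earlier results of these data known, and lists were written from general knowledge. Current names and coordinates are from Ensembl's WBcel235 annotation. Alternatives covered the block, the libraries in the fit, weights from vooma, the trend, a minimum mean of 1 or 4 CPM, log2(CPM + 1), centring on 3 reference genes or on the median, other cutoffs and leaving out each library.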

Additional observations from a re-analysis of the deposited data

Results flagged for a closer look

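Among the genes named here, him-4 stood out because its libraries moved in opposite directions without overlap in the strains. It was lower in all 3 WT skn-1 RNAi libraries (−0.76) and higher in the 3 treated libraries of glp-1(ts), by their label (0.43), a difference of −1.19 between the effects, with a limma adjusted p of 0.752 for that difference. The gaps were narrow. In WT the lowest vector library was at 5.18 and the highest treated one at 5.13. In glp-1(ts) the highest vector library was at 8.17 and the lowest treated one at 8.27. In WT 10.8% of all genes had groups that did not overlap.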

How the results depend on the processing

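Counts of called genes depended on the settings, and the 22 called genes kept their direction under each setting that gave them a value. Against 22 calls (10 higher, 12 lower), the replicate block within strains gave 93 (33 and 60) and the block in the WT libraries alone 71 (27 and 44), with 22 and 18 of the 22 shared. The 6 WT libraries alone without the block gave 4 (0 and 4), vooma weights 7 (0 and 7), a mean of at least 4 CPM 9 (1 higher), no trend 6 higher and log2(CPM + 1) 4 higher. Leaving out 1 library gave 0 to 31 calls, 0 to 14 higher and 0 to 17 lower, with 0 without vector replicate 1. By the cutoffs, 286 lower genes became 86 at a mean of at least 4 CPM, 150 on log2(CPM + 1) and 148 at a fold change under 0.5, and 203 higher genes became 124 at a mean of at least 1 CPM, 45 at 4 CPM, 112 on log2(CPM + 1) and 134 at a fold change over 2. Leaving out 1 library gave 238 to 383 lower and 129 to 265 higher genes. On log2(CPM + 1) 1 gene differed between the strains' effects, where the other settings gave 0. For skn-1, leaving out 1 library gave −1.86 to −1.53. The cause of these shifts was not tested.

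Among the named genes, signs turned for 5 uncalled genes near 0. Centring on the reference genes gave −0.048 for rme-2 and −0.066 for sbp-1. Leaving out 1 library gave −0.28 to 0.27 for rme-2, −0.0499 to 0.055 for sbp-1, −0.39 to 0.027 for gst-7, −0.30 to 0.025 for sod-1 and −0.033 to 0.36 for vit-5. Without skn-1 RNAi replicate 3 the medians of 15 of 45 gene lists turned sign, all within 0.18 of 0, the largest shift being that of the superoxide dismutases, catalases and metallothioneins (0.18 to −0.30). Centring on 3 reference genes moved the median of all genes to −0.06. Depth is unknown, so genes near the lowest values have the least certain sizes.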
